A study of Mus musculus with 6 samples.

Results

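The genes described here encode the Mcm proteins, the subunits and close relatives of the replicative DNA helicase. They were taken as every non-control array probe whose RefSeq accession or symbol maps to Mcm2 through Mcm10. This gave 12 of the 41006 probes and 8 of the 12362 named genes: 10 probes for the 6 genes Mcm2 to Mcm7, 1 for Mcm8 and 1 for Mcm10. Mcm9 had no probe that could be named and was not analysed here.

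Gene expression was read on 6 Agilent arrays with 2 dyes, 2 arrays for each of 3 mouse cultures, in a series concerned with the formation of blood by multipotent adult progenitor cells (MAPC). The MAPC were derived from mouse bone marrow from which, at 4 weeks, cells bearing CD45 or Ter119 were removed; the rest were seeded at 10 cells per well and expanded past 80 population doublings at 5% O2 and 6% CO2, with 2% serum, EGF and PDGF-BB at 10 ng/mL and LIF. Both MAPC arrays carry the same labels, which name the cells mMAPC-1 in the title and clone 2 with high Oct4 in the description; how these names relate is not stated, and the arrays are taken as 1 clone. Embryonic stem cells (ESC) of C57BL/6 origin were kept in 15% fetal calf serum and LIF on irradiated mouse embryonic fibroblasts, and were plated without the fibroblasts before RNA was taken. Neurospheres (NS), floating cultures of neural progenitors, came from C57BL/6 forebrain of E11.5 embryos and grew with bFGF and EGF at 20 ng/mL. Cell type and culture condition cannot be told apart in this design, and p-values measure only the spread between these samples.

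The 6 proteins Mcm2 to Mcm7 form a ring that is loaded around double-stranded DNA at replication origins in G1, when the origin recognition complex, Cdc6 and Cdt1 place it there. This step is called licensing. In S phase the ring is activated by the kinases Cdc7-Dbf4 and CDK and by the joining of Cdc45 and the GINS complex, which together with the ring make the CMG helicase that unwinds DNA ahead of the polymerases. Mcm10 is needed for that activation. Mcm8 pairs with Mcm9 in a separate complex that acts in homologous recombination repair and is not part of the loaded ring. Transcription of Mcm2 to Mcm7 is a textbook example of control by E2F factors, and the proteins are widely used as markers of cells in cycle. Cells of a bulk culture contribute together, so fewer cycling cells and less Mcm RNA per cycling cell cannot be told apart in any value below.

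Each value comes from a 60-base probe. The probes are shown, as the deposited files give them, because probes of the same gene gave different sizes of change. For Mcm4, Mcm5 and Mcm7, which have several, they are numbered from the brightest down. Where a probe sits in its transcript was not mapped here.

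Mcm2: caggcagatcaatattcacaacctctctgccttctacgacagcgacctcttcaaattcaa
Mcm4, probe 2: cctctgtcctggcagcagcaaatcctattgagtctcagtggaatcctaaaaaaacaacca
Mcm5, probe 2: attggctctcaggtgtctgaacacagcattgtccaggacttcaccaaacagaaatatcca
Mcm6: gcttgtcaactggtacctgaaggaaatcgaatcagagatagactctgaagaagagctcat
Mcm7, probe 1: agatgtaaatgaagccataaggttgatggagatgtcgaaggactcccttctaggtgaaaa
Mcm7, probe 2: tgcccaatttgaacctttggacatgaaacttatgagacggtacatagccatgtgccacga
Mcm7, probe 3: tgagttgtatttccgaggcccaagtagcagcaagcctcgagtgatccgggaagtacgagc

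The probe of Mcm3 and probe 1 of Mcm4 are identified by their first 30 bases. Probe 1 of Mcm5 and the probes of Mcm8 and Mcm10 are identified by their last 30, where capitals mark AATAAA, the letters of the common polyadenylation signal.

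Mcm3: ccaagagtggctcaggcagatgacaaagtt
Mcm4, probe 1: ctgttgttattgctgcaaaaggagtctgaa
Mcm5, probe 1: ttgtatgtacagaggtAATAAAgcaattga
Mcm8: tcatcgtaattacaaaactgaaAATAAAag
Mcm10: tagtgtgggtttatttaaAATAAAgtttga

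All 72 of the 72 values of the 12 probes on the 6 arrays were well above background, and 0 were saturated. Over all spots 91.9% to 99.6% were well above background on each array. Log2 ratios correlated at 0.979 to 0.988 between arrays of a group and at 0.456 to 0.611 between groups. The reference signal of a member's probe varied by a factor of 1.2 to 1.59 across the arrays. As a check of the labels, 8 of 10 pluripotency markers were higher in ESC than in NS and all 10 were lower in MAPC than in ESC. Among them Pou5f1, which encodes Oct4, had a processed sample intensity of 8041 to 11680 in ESC, 1261 to 1509 in MAPC and 392 to 420.1 in NS. Of 9 markers of neural progenitors, 7 were lower than in NS both in MAPC and in ESC. All 7 markers of primitive endoderm were higher in MAPC than in either of the others. That list was chosen as high in this MAPC clone, so its result was fixed by the choice and is no check of the labels. Markers of fibroblasts, the feeder cell type, were not alike in the groups. Of 9, 7 were higher and 1, Lum, was lower in ESC than in NS, with Fbln2 not called, and 8 were lower in MAPC than in ESC and 8 lower in MAPC than in NS. Their summed processed sample intensity was 98290 to 142400 in ESC, 58840 to 59720 in NS and 9782 to 11420 in MAPC, and its part in the differences below was not tested.

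Values are log2 ratios of the sample dye over a reference pool of 11 mouse cell lines, and each gene is read by its brightest probe unless stated. The normalization centres the ratios of each array near 0, so 0 need not be the level of a gene in the pool. Arrays are named by group and replicate number. A difference was called when limma gave an adjusted p under 0.05 over all genes tested. With 2 arrays against 2, a two-sided exact permutation test could not go below 0.333, so all calls rest on the model fitted across genes.

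**Figure D1:**
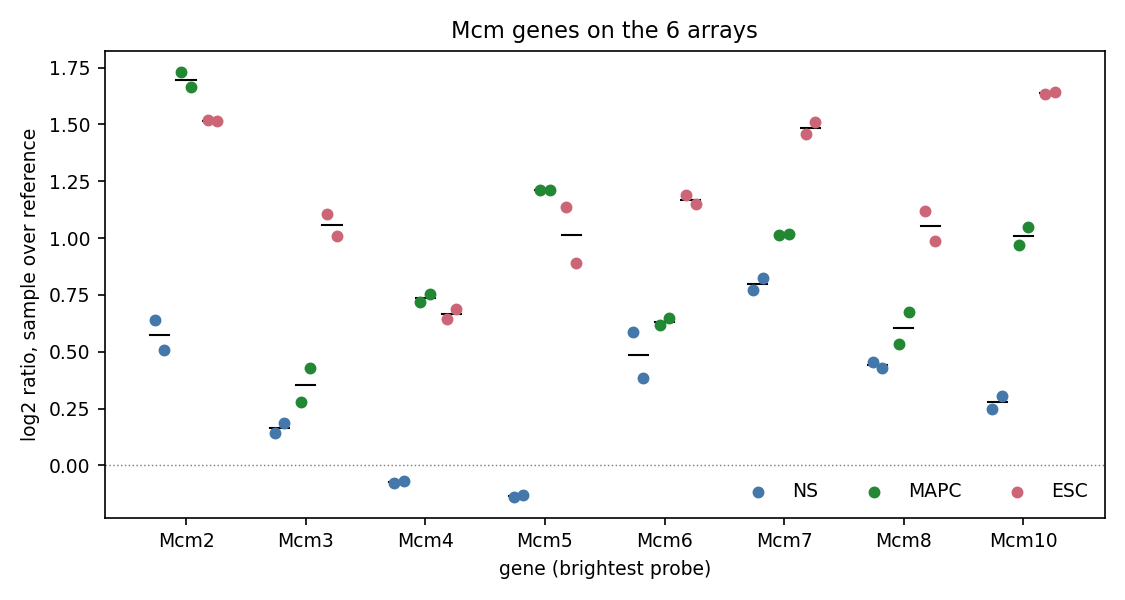
Log2 ratio of sample to reference pool (y axis) for the brightest probe of each of the 8 Mcm genes measured, with 1 point per array and a bar at the mean of each group. NS points lie below all MAPC and ESC points for every gene, and MAPC lies above ESC for Mcm2, Mcm4 and Mcm5 and below it for the other 5.

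NS had the lowest arrays for all 8 genes and for all 12 probes. ESC had the highest arrays for 5 genes, Mcm3, Mcm6, Mcm7, Mcm8 and Mcm10. MAPC had the highest arrays for the other 3, Mcm2, Mcm4 and Mcm5. For every gene and every pair of groups the 2 arrays of one group did not overlap those of the other. The shares of all genes with such an order or separation were not counted, so neither is read as particular to the Mcm genes. The largest gap between the 2 arrays of a group was 0.24, for Mcm5 in ESC.

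All 6 of Mcm2 to Mcm7 were higher in ESC than in NS, by 1.61-fold to 2.21-fold, and Mcm10 and Mcm8 were higher as well. Of all genes tested, 38.2% were called in this comparison, 19.8% higher and 18.4% lower in ESC. Mcm5, a subunit of the ring at the Mcm2-Mcm5 gate through which DNA enters, stood at 1.13 and 0.89 in the 2 ESC arrays and at -0.14 and -0.13 in the 2 NS arrays. By this probe both NS arrays were below 0 and both ESC arrays above it. Probe 2 of Mcm5 read 0.63 and 0.56 in NS, so the position against 0 depends on the probe. Mcm5 was higher in ESC by 1.15 (SE 0.0807, 2.21-fold, adjusted p 1.479e-05). Mcm2, the other side of that gate, stood at 1.52 and 1.51 in ESC and at 0.64 and 0.51 in NS. It was higher in ESC by 0.94 (SE 0.0627, 1.92-fold, adjusted p 1.091e-05).

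Mcm3, a subunit of the ring next to Mcm5, stood at 1.11 and 1.01 in ESC against 0.14 and 0.19 in NS, a difference of 0.89 (SE 0.0692, adjusted p 2.551e-05). Mcm4, part of the ring with Mcm6 and Mcm7 that has helicase activity on its own, stood at 0.64 and 0.69 in ESC against -0.08 and -0.07 in NS. The difference for Mcm4 was 0.74 (SE 0.0520, adjusted p 1.488e-05). Mcm6 was at 1.19 and 1.15 in ESC and at 0.59 and 0.38 in NS, 0.68 higher in ESC (SE 0.0733, adjusted p 0.0001577). Both ESC arrays of Mcm6 lay above both NS arrays. Mcm7 was at 1.46 and 1.51 in ESC and at 0.77 and 0.83 in NS, 0.68 higher (SE 0.0536, adjusted p 2.681e-05). The median difference over Mcm2 to Mcm7 was 0.81, with a range of 0.68 to 1.15. The median over all genes tested was 0.0084.

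The largest difference of any member was that of Mcm10. Its ratios were 1.64 and 1.64 in ESC and 0.25 and 0.31 in NS, a difference of 1.36 (SE 0.0562, 2.57-fold, adjusted p 9.035e-07). Mcm8, of the repair complex, differed least, at 1.12 and 0.99 in ESC against 0.45 and 0.43 in NS, or 0.61 (SE 0.0710, 1.53-fold, adjusted p 0.0002512).

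Mcm2, Mcm4, Mcm5 and Mcm7 were higher in MAPC than in NS, 4 of the 6 genes, and Mcm3 and Mcm6 were not called. Mcm10 was also higher and Mcm8 was not called. Of all genes 43.7% were called in this comparison, 21.2% higher and 22.5% lower in MAPC. Mcm5 stood at 1.21 in each MAPC array, 1.35 above NS (SE 0.0807, 2.54-fold, adjusted p 4.58e-06). Mcm2 stood at 1.73 and 1.66 in MAPC, 1.12 above NS (SE 0.0627, 2.18-fold, adjusted p 3.081e-06). Mcm4 stood at 0.72 and 0.76 in MAPC, 0.81 above NS (SE 0.0520, 1.75-fold, adjusted p 6.837e-06). In each of these 3 genes both MAPC arrays were above both NS arrays.

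The Mcm7 ratios of 1.01 and 1.02 in MAPC were 0.22 above NS (SE 0.0536, 1.16-fold, adjusted p 0.0126), and the adjusted p ranged from 0.001698 to 0.2208 over the alternatives. The call was lost when MAPC replicate 2 was left out (0.21, adjusted p 0.05446) or NS replicate 1 was left out (0.19, adjusted p 0.08335). Mcm3 had 0.28 and 0.43 in MAPC against 0.14 and 0.19 in NS, a difference of 0.19 with a 95% interval of 0.026 to 0.35 (adjusted p 0.06202). It was called when MAPC replicate 1 was left out (0.26, adjusted p 0.03226). Mcm6 had 0.62 and 0.65 in MAPC against 0.59 and 0.38 in NS, a difference of 0.15 with an interval of -0.024 to 0.319 (adjusted p 0.1508). It was called without NS replicate 1 (0.25, adjusted p 0.03297). For Mcm8 the difference was 0.16, with an interval of -0.002 to 0.33 (adjusted p 0.104). Mcm10 stood at 0.97 and 1.05 in MAPC, 0.73 above NS (SE 0.0562, 1.66-fold, adjusted p 1.925e-05).

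Of Mcm2 to Mcm7, 3 were lower in MAPC than in ESC, Mcm3, Mcm6 and Mcm7, none was called higher, and Mcm2, Mcm4 and Mcm5 were not called. Mcm8 and Mcm10 were lower too, so 5 of the 8 members were lower. Of all genes 38.1% were called in this comparison, 15.9% higher and 22.1% lower in MAPC. The 3 comparisons share arrays and are not independent of each other. The largest difference was that of Mcm3, whose MAPC ratios of 0.28 and 0.43 lay below the ESC ratios of 1.11 and 1.01. It was -0.70 (SE 0.0692, 1.63-fold, adjusted p 0.0001076), and -0.83 and -0.58 within replicate numbers 1 and 2. Mcm10, at 0.97 and 1.05 in MAPC against 1.64 and 1.64 in ESC, had a difference of -0.63 (SE 0.0562, 1.55-fold, adjusted p 6.119e-05).

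Mcm6 stood at 0.62 and 0.65 in MAPC and at 1.19 and 1.15 in ESC, a difference of -0.54 (SE 0.0733, 1.45-fold, adjusted p 0.0006745). Mcm7 stood at 1.01 and 1.02 against 1.46 and 1.51, a difference of -0.47 (SE 0.0536, 1.38-fold, adjusted p 0.0002544). Both genes kept both MAPC arrays below both ESC arrays. Mcm8 stood at 0.54 and 0.67 in MAPC and at 1.12 and 0.99 in ESC, a difference of -0.45 (SE 0.0710, 1.36-fold, adjusted p 0.001539).

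Mcm2 was at 1.73 and 1.66 in MAPC and 1.52 and 1.51 in ESC, a difference of 0.18 with a 95% interval of 0.034 to 0.328 (adjusted p 0.05658). Every MAPC array was above every ESC array. With the replicate number as a block, the same difference was called (adjusted p 0.04054), and the adjusted p ranged from 0.02318 to 0.2211 over all alternatives. For Mcm5 the difference was 0.20 with an interval of 0.011 to 0.389 (adjusted p 0.094). The 2 Mcm5 arrays of ESC were 0.24 apart, and Mcm5 was called without ESC replicate 1 (0.32, adjusted p 0.007213). For Mcm4 the difference was 0.07 with an interval of -0.05 to 0.193 (adjusted p 0.3394).

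**Figure D2:**
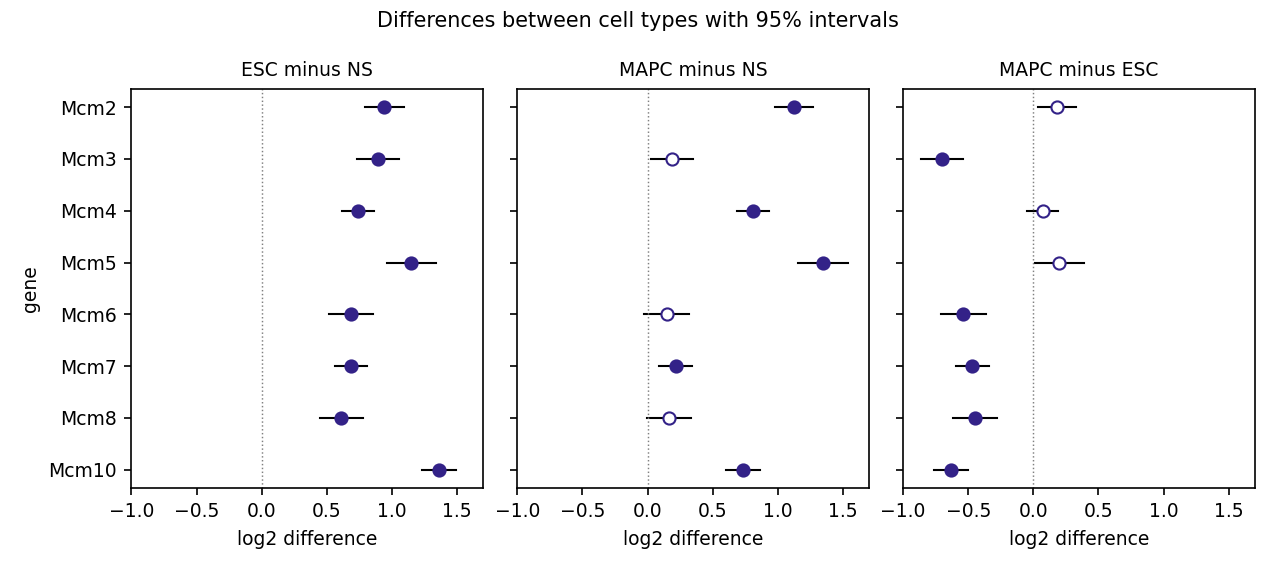
Log2 differences between groups (x axis) for each of the 8 Mcm genes, with 95% intervals from limma, where filled points were called and open points were not. All 8 genes lie above 0 for ESC minus NS, and the MAPC minus ESC differences run from -0.70 for Mcm3 to 0.20 for Mcm5.

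The change of relative level within the ring can be read from differences between subunits on the same array. Chosen after the values were seen, and so given with no test, the mean of Mcm2, Mcm4 and Mcm5 minus the mean of Mcm3, Mcm6 and Mcm7 was 0.58 and 0.51 on the 2 MAPC arrays. It was -0.15 and -0.19 on the ESC arrays and -0.36 on both NS arrays. Both MAPC arrays gave a higher value than the other 4. The trios are the genes with MAPC above and below ESC, so a higher value in MAPC than in ESC was fixed by the choice. The pair that differed most between MAPC and ESC was Mcm3 minus Mcm5. Its values were -0.93 and -0.78 in MAPC, -0.03 and 0.12 in ESC and 0.28 and 0.32 in NS. The pairs that moved least from ESC to MAPC were Mcm2 minus Mcm5 (-0.02) and Mcm6 minus Mcm7 (-0.07). Since probes differ in labelling and hybridization, such a difference carries no molar meaning, and only its change between arrays is read here. Averaged over the 6 subunits, the log2 ratio was 1.17 and 1.13 in ESC, 0.93 and 0.95 in MAPC and 0.32 and 0.28 in NS.

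The extra probes of Mcm4, Mcm5 and Mcm7 read those genes again. Each probe was tested on its own, where 38.4% of all probes were called for MAPC minus ESC (16.2% higher, 22.2% lower), 44.2% for MAPC minus NS (21.8% and 22.3%) and 38.6% for ESC minus NS (20.4% and 18.2%). For ESC minus NS, 12 of 12 Mcm probes were called higher. For MAPC minus NS, 9 of 12 were called higher. Over 17 alternatives the number of Mcm probes called was 10 to 12 for ESC minus NS and 6 to 10 for MAPC minus NS. For MAPC minus ESC, 8 of 12 were called, 6 lower and 2 higher, and the count was 5 without ESC replicate 2 and 5 without MAPC replicate 1.

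The 2 probes called higher in MAPC than in ESC were probe 2 of Mcm4 and probe 2 of Mcm5. Probe 2 of Mcm5 read 1.83 and 1.80 in MAPC against 1.61 and 1.45 in ESC, a difference of 0.29 (adjusted p 0.01295). Probe 2 of Mcm4 read 0.80 and 0.88 against 0.66 and 0.56, a difference of 0.23 (adjusted p 0.04603). Both had the same sign as the brightest probe of the gene, which was not called. The 3 Mcm7 probes gave -0.47, -0.24 (adjusted p 0.01248) and -0.13 (adjusted p 0.1856) for MAPC minus ESC, in order of brightness. Probe 3 of Mcm7 was the dimmest, with a background-subtracted sample intensity of 69.05 to 110.5. All 3 were above NS in MAPC, by 0.22, 0.37 and 0.30.

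**Figure D3:**
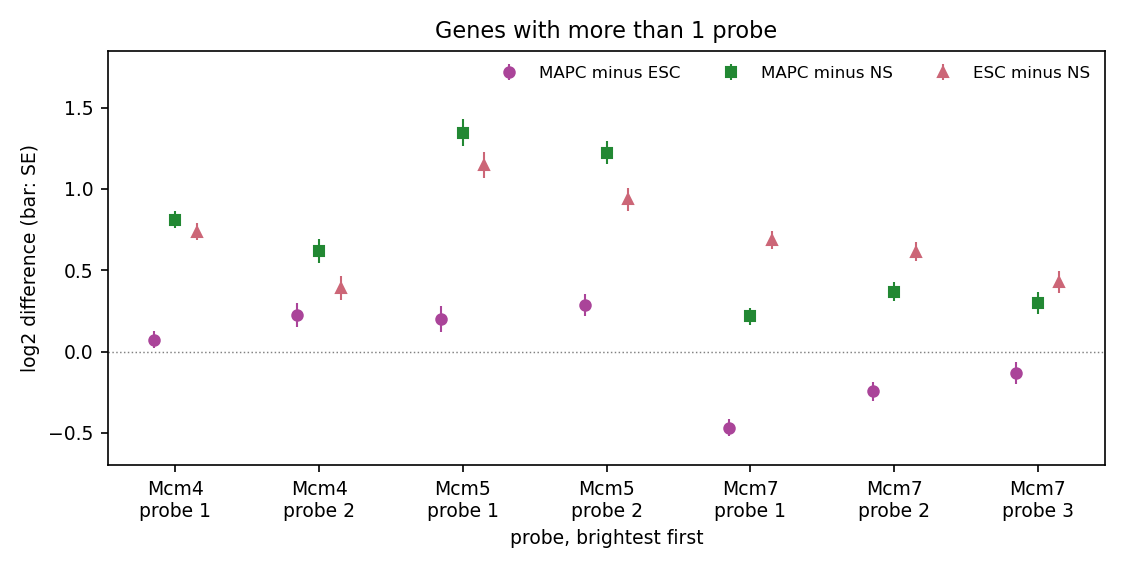
Log2 difference (y axis, bars are standard errors) in each comparison for every probe of Mcm4, Mcm5 and Mcm7, the genes with more than 1 probe, from the brightest probe on. Probes of a gene share the sign of the difference in each comparison, and those of Mcm7 range from -0.47 to -0.13 for MAPC minus ESC.

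The other genes of DNA replication were counted in lists by role. Over the 80 genes tested in 7 lists, which hold no Mcm gene, 78.8% were called between ESC and NS, 65.0% between MAPC and ESC and 71.2% between MAPC and NS, against 38.2%, 38.1% and 43.7% of all genes. Of all 35785 genes tested only 12154 were named, while every list gene was, so the 2 sets are not alike. With the sample channel alone, the number called in the lists was 41 in place of 63 between ESC and NS and 31 in place of 52 between MAPC and ESC. The count of all genes called also varied over the alternatives, as given at the end. The licensing list holds the genes that load the Mcm ring, with Gmnn, whose product geminin blocks loading by binding Cdt1, and Mcmbp, whose product binds free Mcm subunits. All 10 were higher in ESC than in NS, with a median of 0.84. Orc1, the largest subunit of the origin recognition complex, had ratios of 2.58 and 2.49 in ESC and 0.12 and 0.25 in NS, a difference of 2.35 (adjusted p 1.594e-07). Cdt1, the loader of the ring, was higher by 1.39 and Orc2 by 1.25. Mcmbp was read with opposite signs by its 2 probes against NS, and is uncertain.

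Between MAPC and NS, 8 of the 10 licensing genes were higher in MAPC and none lower, with a median of 0.76. Orc1 was higher by 2.41 (adjusted p 7.248e-08). Cdc6, the ATPase that recruits Cdt1 and the ring, stood at 3.57 and 3.48 in MAPC and at 1.59 and 1.61 in NS, a difference of 1.92. Cdt1 was higher by 1.51, and the Orc4 difference was -0.03 and the Orc3 difference 0.13 without a call. Between MAPC and ESC the list was mixed, with 3 higher, 4 lower and 3 not called. Cdc6 was higher in MAPC by 0.73, while Orc2 and Orc3 were lower, at -0.63 and -0.61. Orc1 (0.06) and Mcmbp (0.09) were not called.

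The genes that turn the loaded ring into the CMG helicase were counted next. Of 12 tested, 7 were higher in ESC than in NS, 0 lower and 5 not called, with a median of 0.27. Gins4, a subunit of GINS, was higher by 0.98, Dbf4, the activator of Cdc7 kinase, by 0.84, and Timeless, a fork protection protein, by 0.64. Donson, which helps to recruit GINS, was at -0.07 and Clspn, a mediator of the replication checkpoint, at 0.08, neither called, though the other probe of Clspn was called lower in ESC (-0.25, adjusted p 0.01737). Against NS, 6 were higher in MAPC and 3 lower, led by Gins4 (0.75), Timeless (0.72) and Donson (0.68). Tipin (0.05, 1 MAPC array) and Wdhd1 (0.07), a fork scaffold protein, were not called. Against ESC, 2 were higher in MAPC and 6 lower (median -0.24). Donson was higher by 0.75, while Tipin, the partner of Timeless, and Dbf4 were lower at -0.49 and -0.41, each with a value on 1 MAPC array only. Clspn (0.01) and Timeless (0.08) were not called.

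Among 20 genes that act at the replication fork, 14 were higher in ESC than in NS, 1 was lower and 5 were not called. Rpa1, the large subunit of the single-strand binding protein, was higher by 1.07, Fen1, the flap nuclease, by 0.89, and Rpa2 by 0.85. Pcna, the sliding clamp, gave 0.07 and Pold2 0.08 with no call. Between MAPC and NS, 7 were higher and 5 lower. Pold3, a subunit of DNA polymerase delta, was higher by 1.40, and Fen1 by 0.81. Pola1, the catalytic subunit of DNA polymerase alpha, was lower at -0.73, though its other probe gave -0.09 with no call. Rpa1 (0.01) and Prim2 (-0.04), a subunit of primase, were not called. Between MAPC and ESC, 10 of the 20 were lower and 1 higher. Rpa1 was lower at -1.06 and Pola1 at -0.89, where its other probe gave -0.18, and Pold3 was higher at 0.84. Chaf1a (0.03) and Lig1 (-0.04) were not called.

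Genes that supply nucleotides, regulate the cell cycle and act in mitosis were called in both directions. Of 5 nucleotide supply genes, 2 were higher and 2 lower in ESC than in NS, 1 higher and 2 lower in MAPC than in NS, and 1 higher and 2 lower in MAPC than in ESC. Dck, a deoxynucleoside salvage kinase, was lower in ESC than in NS (-1.37) and in MAPC than in NS (-1.78), and Dut, the dUTPase, was higher by 1.07 and 1.20. Tk1, the thymidine salvage kinase, was lower in ESC (-0.58) and in MAPC (-0.37) than in NS. Rrm2, a subunit of ribonucleotide reductase, was not called for ESC minus NS (-0.0039) or MAPC minus NS (-0.11), where its other probe was called at 0.51 and 0.45. Between MAPC and ESC, Dck (-0.40) was lower in MAPC and Tk1 (0.22) was higher, while Rrm2 (-0.10) and Dut (0.13) were not called. Of 12 genes of E2F factors, which drive or hold back S phase genes, and of the pocket proteins that bind them, 3 were higher and 5 lower in ESC than in NS, 4 higher and 6 lower in MAPC than in NS, and 3 higher and 4 lower in MAPC than in ESC. Rb1, the retinoblastoma repressor of E2F targets, had ratios of 0.68 and 0.73 in NS, -0.80 and -0.67 in ESC and -1.74 and -1.78 in MAPC. It was lower in ESC than in NS (-1.44) and in MAPC than in NS (-2.47) and ESC (-1.03). E2f4 was higher in ESC (1.11) and in MAPC (1.14) than in NS, and Rbl1, a relative of Rb1, was lower in ESC (-1.09) and MAPC (-1.94). The largest other differences of this list between MAPC and ESC were those of Tfdp2 (-1.05), a dimer partner of E2F, and E2f6 (0.95), a repressor. E2f1 (0.03) and Lin52 (0.0074) were not called for ESC minus NS, though the other probe of Lin52 was (0.22, adjusted p 0.04023). E2f7 (-0.05) and Lin52 (-0.20) were not called for MAPC minus NS, nor E2f4 (0.02) and E2f7 (0.03) for MAPC minus ESC.

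Of the 7 cyclin-dependent kinase inhibitor genes, 5 were lower and 2 higher in ESC than in NS, 6 lower and 1 higher in MAPC than in NS, and 3 lower and 2 higher in MAPC than in ESC. Cdkn1c, which encodes p57, stood at 3.72 on both NS arrays, at 3.33 and 3.21 in ESC and at -0.06 and 0.0045 in MAPC, a difference of -3.75 for MAPC minus NS and -3.30 for MAPC minus ESC. The largest differences for ESC minus NS were those of Cdkn1b (-1.80), Cdkn2d (-1.44) and Cdkn2c (-1.27). Cdkn1a, which encodes p21, was lower in MAPC than in NS (-1.48; -0.46 by its other probe). It was lower in MAPC than in ESC by its brightest probe (-0.93), but its other probe was not called (-0.15, adjusted p 0.1696). Cdkn2b, which encodes p15, was lower in MAPC than in ESC (-1.17), and Cdkn2c (0.12) and Cdkn2a (0.51) were not called there. Cdkn2a was higher in MAPC than in NS by 1.42. Of 14 mitosis genes, 10 were higher and 2 lower in ESC than in NS, and 7 higher and 1 lower in MAPC than in NS. Mybl2, a transcription factor of late cell cycle genes, was higher by 1.89 and 1.26, and Kif20a, a mitotic kinesin, by 1.01 and 0.88. Bub1, a spindle checkpoint kinase, was higher in ESC than in NS by 0.71, and Birc5, which encodes survivin, was higher in MAPC than in NS by 0.99 with a value on 1 MAPC array only. Cenpe was not called for ESC minus NS (-0.05), though its other probe was (-0.26, adjusted p 0.009528), and Ccnb2 was not called for MAPC minus NS (0.04). Between MAPC and ESC, 5 mitosis genes were higher and 6 lower, with Bub1 at -1.06, Cenpe at 0.78 and Foxm1 at 0.73, and Cenpa (-0.05) was not called. Plk1, a mitotic kinase, was not called in any comparison, at -0.0027, -0.0047 and -0.002.

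**Figure D4:**
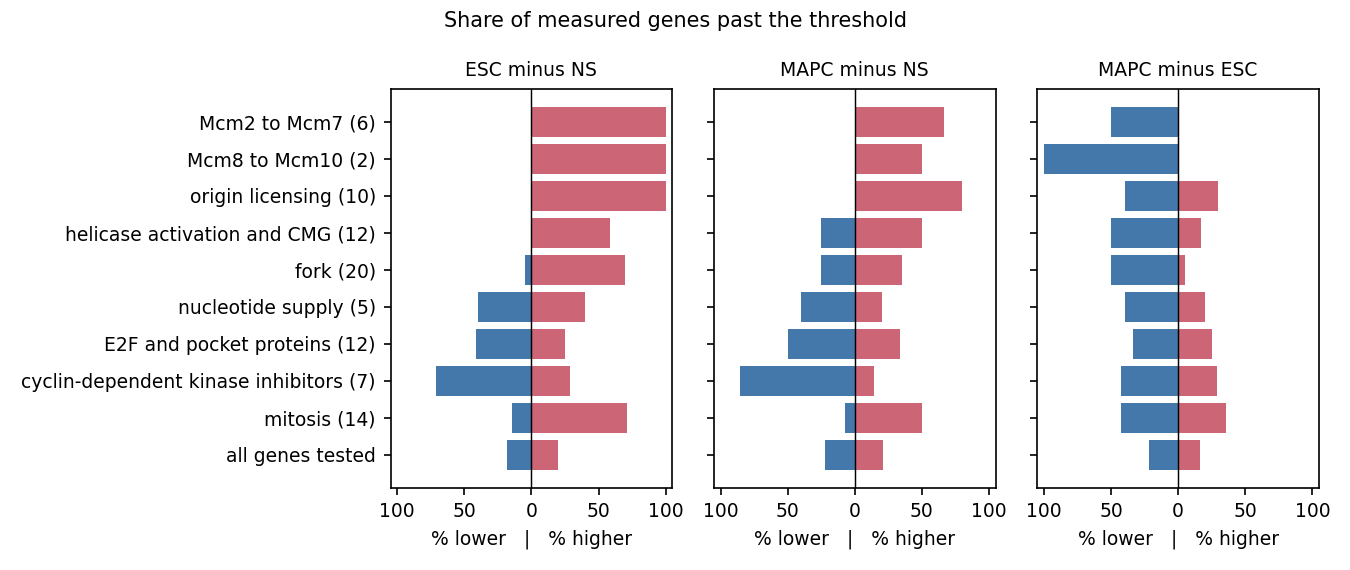
Percent of the tested genes of each list called lower (bars to the left) and higher (bars to the right) in each comparison, with the number tested in brackets and all genes at the bottom. For ESC minus NS all 10 licensing genes were higher, while 5 of the 7 cyclin-dependent kinase inhibitor genes were lower.

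The promoter windows of the members were searched for E2F letters, since E2F control of this family is well known. RefSeq windows on GRCm38.p6, from 250 bases before to 50 after the start, were present for 8 genes, Mcm9 among them but not Mcm4, and Mcm7 had 2 windows. The 4 letter strings searched on both strands were TTTCCCGC, TTTCGCGC, TTTGCCGC and TTTGGCGC, and overlapping matches were counted singly. A match was held by 5 of the 8 genes, Mcm3, Mcm5, Mcm6, Mcm7 and Mcm8, against 2.3% of the 32851 windows of all genes. At least 2 matches were held by 4 genes, against 0.0974% of all windows. The members are counted by gene and the background by window, so the units differ. Mcm7 is counted by the window with more matches, and its other window held none. None was found for Mcm2, Mcm9 or Mcm10, which says only that these letters are not in this window. Matches are a description of the sequence and not of binding.

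Mcm5 had 2 overlapping matches on opposite strands before its start, Mcm6 had 3 and Mcm7 had 1 before and 1 after. The stretches that hold those before the start are shown in the direction of the gene, with the matches in capitals, to show how they are placed.

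Mcm5, chr8:75109331-75109392 (+): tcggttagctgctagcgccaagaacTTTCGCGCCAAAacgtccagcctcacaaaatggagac
Mcm6, chr1:128359720-128359840 (-): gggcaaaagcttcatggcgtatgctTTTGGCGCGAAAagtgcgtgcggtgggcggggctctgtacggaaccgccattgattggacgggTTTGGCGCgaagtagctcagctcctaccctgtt
Mcm7, chr5:138172016-138172073 (-): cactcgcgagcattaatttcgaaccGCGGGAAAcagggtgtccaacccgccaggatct

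In Mcm5 the first bases of the matches lie at -153 and -149 from the start, in Mcm6 at -110, -106 and -47, and in Mcm7 at -165. The windows of Mcm2, Mcm8 and Mcm9 each hold 1 CCAAT, and those of Mcm3, Mcm5 and Mcm10 hold 3 each. The window of Mcm6 holds 2, and the 2 windows of Mcm7 hold 1 and 3. CCAAT is found in 37.4% of all windows.

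The named genes whose log2 ratios over the 6 arrays were most like the mean of Mcm2 to Mcm7 were Syf2, Rbm48, Cox11, Amd1 and Ephb4. Likeness was the root mean square distance after centring each gene, over 6 arrays that fall in 3 groups. Their distances were 0.0356, 0.0361, 0.0376, 0.0388 and 0.0398, against a median of 0.3811 over 11978 named genes. The ring's own genes were farther from their shared mean, from 0.1193 for Mcm4 to 0.2961 for Mcm5, and 216 named genes were nearer than Mcm4. Such a rank is a description of 6 arrays only.

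Of the genes beside the members, 5 near Mcm4, Mcm7 and Mcm8 were chosen, and those of the other members were not read. In each comparison 2 of the 5 were called, or 40.0%, against 38.2%, 43.7% and 38.1% of all genes for ESC minus NS, MAPC minus NS and MAPC minus ESC, so the count is near the background. Of the 5, 2 were higher in ESC than in NS, 1 was higher and 1 lower in MAPC than in NS, and 2 were lower in MAPC than in ESC. Prkdc, which neighbours Mcm4 and encodes the DNA-dependent protein kinase, was higher in ESC than in NS by 0.59 as Mcm4 was, but lower in MAPC than in ESC (-0.63, adjusted p 7.637e-05), where Mcm4 was not called. Cops6, beside Mcm7, was lower in MAPC than in ESC (-0.43) as was Mcm7, and lower in MAPC than in NS (-0.33), where Mcm7 was higher. Ap4m1 and Taf6, on the other side of Mcm7, were not called in any comparison. Trmt6, beside Mcm8, was higher in ESC than in NS by 1.08, and was not called for MAPC minus ESC (-0.20, adjusted p 0.07474, with a value on 1 MAPC array only).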

How the data were processed

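RNA of MAPC, ESC and NS was measured on 2 arrays each. The deposited scanner files hold, per the file headers, the mean intensity and local background intensity of each spot and dye from Agilent Feature Extraction A.7.5.1. Sample RNA was labelled with Cy3 and the reference with Cy5, without dye swaps. The deposited log10 ratio in those files is Cy5 over Cy3. The deposited series matrix holds log10 values whose rule was worked out from the values, with column medians of 2.95 to 2.97. It served as a check of scale and direction and as an alternative to the main processing. Of its 41034 spots, 86.9% equalled a spot constant plus the sample-over-reference ratio within 0.001. Other steps by the authors are not known here.

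Background was corrected with normexp (offset 50), ratios were normalized by loess within each array and turned to sample over reference on the log2 scale, in limma 3.58.1 under R 4.3.3. Outlier spots were dropped, so that a named gene can have a value on 1 array of a group. A gene was kept if its brightest probe was well above background on both arrays of at least 1 group, which left 35785 genes and 39402 probes. Of these genes 12154 were named, and each other entry without a name found here was counted as a gene of its own. lmFit and eBayes were fitted on all 6 arrays with 3 residual degrees of freedom, with Benjamini-Hochberg adjustment over all genes. Names came through RefSeq accessions for 15294 probes.

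Of each replication list the 3 genes with the largest called difference and the 2 nearest to 0 without a call were named, except 1 gene that is not reported here. Members, lists and comparisons were chosen with earlier results of these data known. Replicate numbers 1 and 2 also mark the day on which images were extracted, per the file headers. The deviations of same-numbered arrays were only weakly correlated between groups (0.1047, 0.2085 and 0.1625). The block on replicate number is also a block on extraction day. Alternatives tried were other background and normalization choices, the deposited processed signals, the series matrix values, the sample channel alone, the probe average, the replicate block and leaving out each array.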

Additional observations from a re-analysis of the deposited data

How the results depend on the processing

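Over 19 alternatives for each of the 24 gene differences, 443 of 456 values kept their direction and their side of the threshold, 4 lost the call, 8 gained it and 1 changed sign. Quantile scaling of brightness between arrays leaves the log ratios unchanged, so its values equalled the main ones by construction. The deposited processed signals and the series matrix values were nearly the same as each other. The count of kept values includes these settings. The sign change was Mcm4 for MAPC minus ESC, at -0.0511 in the sample channel alone; it was not called in either. In that channel alone the replication lists held 31 called genes for MAPC minus ESC (52 in the main test) and 41 for ESC minus NS (63). The count of all genes called also varied over the alternatives. Its lowest value was 9092 for MAPC minus ESC (13611 in the main test) and 9412 for ESC minus NS (13663). Whether the lists lost more calls than all genes was not tested. For MAPC minus ESC the count of Mcm probes called was 5 to 9 when 1 array was left out (8 with all arrays). The call of Mcm7 in MAPC minus NS was lost with plain background subtraction (0.19, adjusted p 0.06858) or with only the sample channel (0.18, adjusted p 0.2208). Mcm3 in MAPC minus NS was called with median centring (0.39, adjusted p 0.002745). Mcm2 in MAPC minus ESC was called with no background subtraction (0.13, adjusted p 0.02318), and Mcm5 with median centring (0.26, adjusted p 0.04471) and the probe average (0.24, adjusted p 0.03373). The cause was not tested. The replicate block changed the call of Mcm2 in MAPC minus ESC (0.18, adjusted p 0.04054) and no other call of a member gene, and left 4, 4 and 6 of Mcm2 to Mcm7 called, in the order MAPC against ESC, MAPC against NS and ESC against NS. The 6 ring genes stayed called in ESC minus NS in every alternative. The number of arrays, 2 a group, limits the precision of each value.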
